A study of Homo sapiens with 36 samples.

Results

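The genes described here are 48 chaperones, co-chaperones and heat shock regulators, mostly of the cytosol, nucleus and mitochondria. They were chosen by name, with earlier results of these data known. The list holds HSP70, HSP110, HSP90, HSP60 and HSP10, small HSP, DNAJ and BAG genes, other co-chaperones and the TRiC/CCT chaperonin. It also holds the heat shock factors HSF1 and HSF2, and SERPINH1 of the endoplasmic reticulum. The members are 48 of the 74628 genes in the count table, of which 53022 had at least 1 count. All 48 passed the filter on low counts. The cells were Jurkat, a human T-lymphocyte leukaemia line, with stable dCas9-VP64 (a nuclease-dead Cas9 fused to a transcriptional activator, for CRISPR activation) and marked mCherry+, which both groups share. One group carried a lentiviral guide RNA against RELA (sgRELA) and the other a non-targeting control guide (sgControl); both received puromycin over 3 days, and RNA was taken 5, 6 or 7 days after transduction. There are 6 groups with 3 biological replicates each, since transductions were made in triplicate, and each RNA sample has 2 RamDA-seq libraries made from 100 pg of RNA, whose counts were added. The labels name 1 guide per group and describe no clone, and untransduced cells were not analysed here, so the days are compared only with each other. They give no extraction or sequencing batch either, so day and batch cannot be told apart.

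HSP70 proteins bind exposed hydrophobic stretches of unfolded proteins and release them in a cycle driven by ATP. DNAJ proteins bring the clients and start the ATP cycle, while BAG proteins and the HSP110 family exchange the nucleotide. HSP90 takes over partly folded clients such as kinases and steroid receptors with the help of co-chaperones, and the ring-shaped chaperonins, TRiC/CCT in the cytosol and HSP60 with its lid HSP10 in mitochondria, fold proteins inside a closed chamber. HSF1 is the main activator of the heat shock response: it trimerises under proteotoxic stress and binds heat shock elements, inverted repeats of the unit nGAAn. Some family members, such as HSPA1A, HSPA1B, HSPA6 and DNAJB1, are textbook strongly inducible genes, whereas others, such as HSPA8, HSP90AB1 and the CCT subunits, are abundant in unstressed growing cells.

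Library totals were 7586205 to 16124473 counts, and totals per RNA sample 18769530 to 29503934. RELA, the targeted gene, rose in sgRELA by 3.14, 3.07 and 2.36 on the log2 scale on days 5, 6 and 7 (edgeR adjusted p = 1.08e-15, 2.49e-15 and 7.89e-13). T-cell markers were present (LCK at 552 to 1003 and CD3E at 359.6 to 518 CPM, counts scaled to a common library total), EPCAM was at 0 in all 18 RNA samples, and MS4A1, CD14, COL3A1, DCN, KRT18 and KRT19 stayed under 1 CPM. Other markers were higher: CD79A was at 16.4 to 62.6 and COL1A1 at 1.95 to 10.3 CPM, and CSF1R, KRT8 and LYZ reached 2.36, 1.55 and 1.12 CPM. Library 1 of sgControl day 5 replicate 2 and library 1 of sgControl day 6 replicate 1 had the fewest detected genes (25398 and 26526), and the latter stood apart from the other day 6 libraries of its guide for several members, so results that rest on them are also given without them. Coordinates are those of GENCODE v29 (GRCh38). Exons of 17 members (HSPA4L, HSPA14, HSP90AA1, TRAP1, HSPD1, HSPE1, CRYAB, DNAJA4, DNAJB1, BAG2, AHSA1, FKBP4, CHORDC1, HSF1, TCP1, CCT4 and CCT5) overlap a gene on the other strand, and without a stated strand setting reads of both cannot be told apart.

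The 48 members together fell on day 6 and returned on day 7, in both guides. They took 1.13% ± 0.08 of all counts in sgControl on day 5, 0.616% ± 0.032 on day 6 and 1.27% ± 0.01 on day 7 (SD, n = 3). In sgRELA these shares were 1.13% ± 0.06, 0.632% ± 0.011 and 1.27% ± 0.002. No day 6 sample reached the lowest sample of another day: the day 6 range was 0.581% to 0.643% and the lowest value elsewhere was 1.04%. The share of mitochondrial transcripts moved with the days as well, at 8.06% ± 1.06 and 7.65% ± 0.14 on day 5, 8.86% ± 0.47 and 9.29% ± 0.60 on day 6 and 7.65% ± 0.22 and 7.64% ± 0.16 on day 7 for sgControl and sgRELA; its part in the member changes was not tested. In bulk RNA, fewer cells with a transcript and less of it per cell cannot be told apart.

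**Figure D1:**
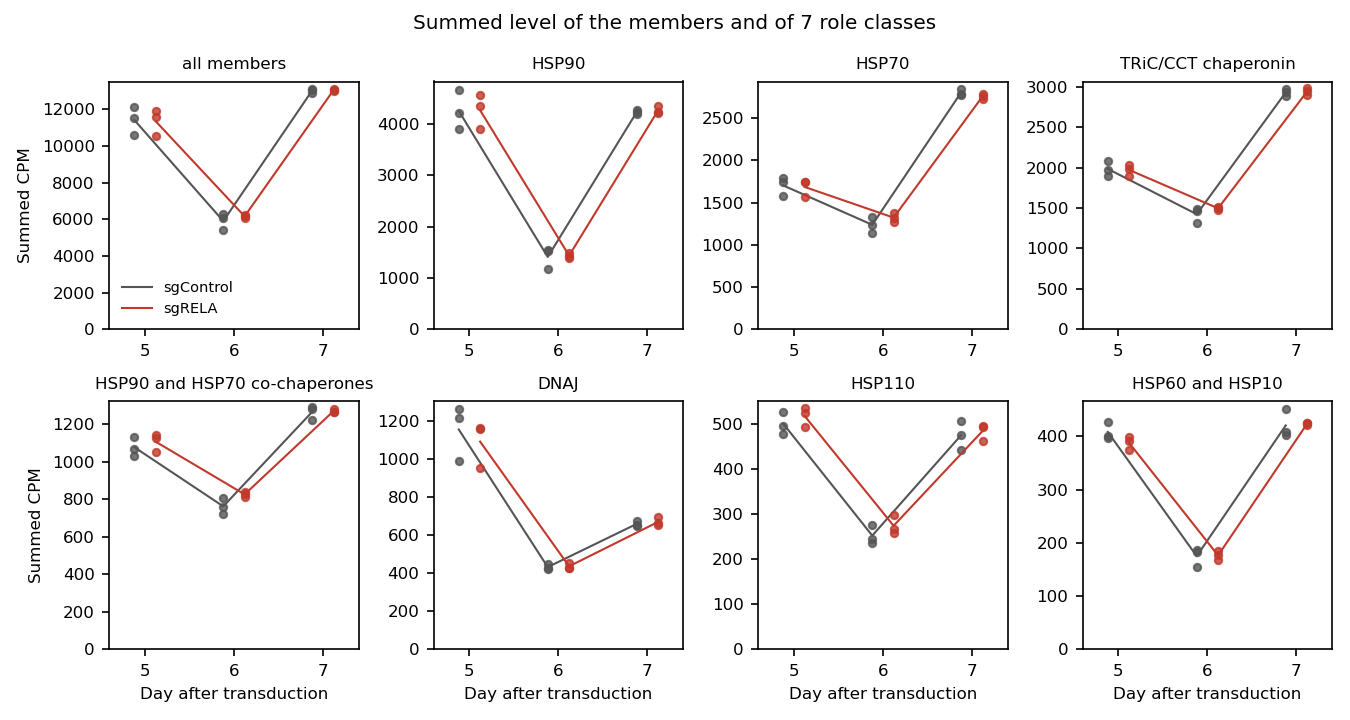
Summed level in CPM (y axes from 0) against day after transduction (x axes) for all members and 7 role classes; points are RNA samples (n = 3 per guide and day), lines join group means, grey is sgControl and red sgRELA. All members together fell to 5907 CPM in sgControl and 6167 CPM in sgRELA on day 6 and stood at 13042 and 13063 CPM on day 7, while the DNAJ class stayed below its day 5 level through DNAJB1. The other 7 DNAJ members summed to 367 ± 14.2 CPM on day 5 and 503 ± 11.3 on day 7 in sgControl, and to 382 ± 9.18 and 510.1 ± 9.27 in sgRELA.

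Calls were made with edgeR's quasi-likelihood test at a Benjamini-Hochberg adjusted p under 0.05 over all 27553 genes tested. From day 5 to day 6, 28 of the 48 members fell and 0 rose in sgControl, where 5.58% of all genes tested were called lower and 3.29% higher. At an unadjusted p under 0.05, 0 members were higher and 31 lower, and DESeq2 also called 0 higher. In sgRELA 28 fell and 0 rose as well (34 lower and 0 higher at an unadjusted p under 0.05, 0 higher by DESeq2), against 4.34% and 2.57% of all genes. The median log2 change of the members was -0.45 and -0.49, that of all genes 0.04 and 0.03. From day 6 to day 7, 31 members rose and 4 fell in sgControl (background 8.25% and 6.31%), and 31 rose and 2 fell in sgRELA (background 7.21% and 5.02%). The median was 0.71 and 0.70 for members and -0.07 and -0.06 for all genes. Day 7 was not a return to day 5: 20 members were higher and 13 lower than on day 5 in sgControl (background 6.65% and 6.36%), and 20 were higher and 11 lower in sgRELA (background 6.35% and 6.06%). The 3 comparisons within a guide share their day samples, so their values are set side by side and not correlated. An F test for any day difference in either guide called 43 of the 48, against 25.6% of all genes. Of the falls from day 6 to day 7, those of HSPA6 in both guides and SERPINH1 in sgControl kept the call in all 18 fits that left out 1 RNA sample. Those of CRYAB and DNAJB2 in sgControl and SERPINH1 in sgRELA lost it in some. The count was 2 in place of 4 in sgControl without day 7 replicate 1 or replicate 2, and 1 in place of 2 in sgRELA without day 7 replicate 2.

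**Figure D2:**
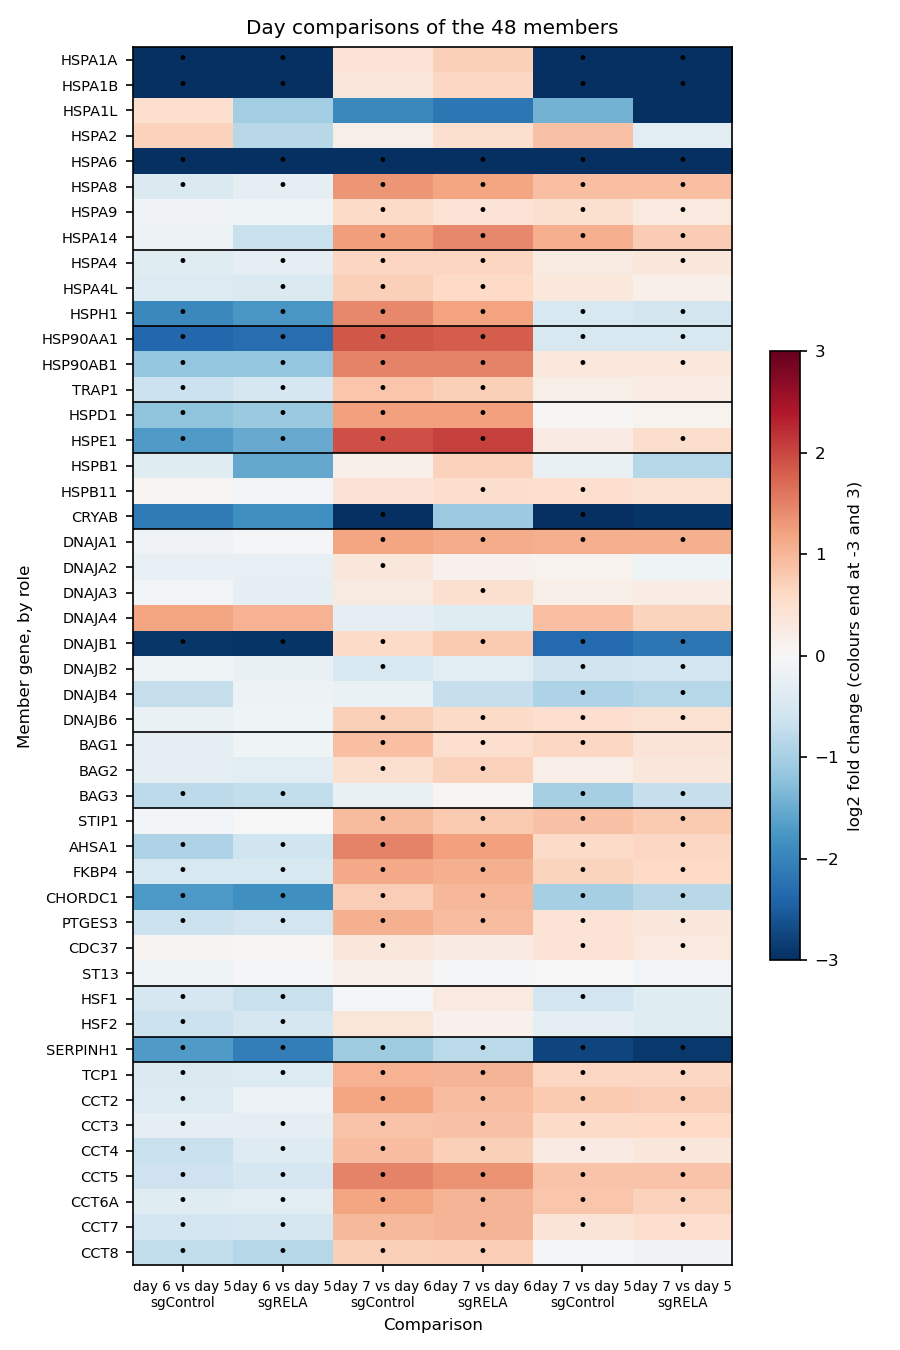
Log2 fold change (colour, ends at -3 and 3) of each of the 48 members (rows, in blocks by role) in the 3 day comparisons of each guide (columns); a dot marks an edgeR adjusted p under 0.05. The 28 dots in each day 6 column are all on lower values, and the TRiC/CCT block at the bottom is lower on day 6 and higher on day 7 in both guides.

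The 3 inducible HSP70 genes HSPA6, HSPA1A and HSPA1B had the largest called falls on day 6 of all members and were not called higher on day 7. HSPA6 (HSP70B', nearly silent in unstressed cells; ENSG00000173110, chromosome 1, 161524540 to 161526910) had 48.1, 79.4 and 53.9 CPM in the sgControl replicates on day 5, 5.88, 1.92 and 5.58 on day 6 and 0.0828, 0.0856 and 0.237 on day 7. The sgRELA replicates had 38.6, 69.0 and 54.9, then 0.746, 2.55 and 0.941, then 0, 0.325 and 0.0839 CPM. The days did not overlap in either guide, and day 7 rested on 10 counts summed over the 3 samples of each guide, against 4084 and 4274 on day 5. HSPA6 fell by 3.76 ± 0.36 on the log2 scale from day 5 to day 6 in sgControl (adjusted p = 3.19e-08) and by 5.25 ± 0.41 in sgRELA (adjusted p = 2.97e-10). It fell again to day 7, with changes of -4.97 ± 0.58 (adjusted p = 1.26e-07) and -3.34 ± 0.66 (adjusted p = 0.000516), and with so few counts on day 7 the size of that second fall is poorly fixed.

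HSPA1A and HSPA1B encode the same stress-inducible HSP70 protein from near-identical neighbouring genes, so reads may be split between them in a way that the deposited counts do not show. HSPA1A (ENSG00000204389, chromosome 6, 31815464 to 31817946) had 6.23, 10.3 and 11.8 CPM on day 5, 0.735, 0.759 and 1.15 on day 6 and 0.787, 1.11 and 1.62 on day 7 in sgControl. In sgRELA the values were 7.13, 8.40 and 12.1, then 0.702, 0.850 and 0.105, then 0.631, 1.50 and 0.629. Every day 5 sample lay above every later one, and days 6 and 7 overlapped. HSPA1A changed by -3.41 ± 0.50 (adjusted p = 2.28e-05) and -4.02 ± 0.52 (adjusted p = 4.07e-06) from day 5 to day 6, and by 0.41 ± 0.49 (adjusted p = 0.698) and 0.71 ± 0.52 (adjusted p = 0.487) from day 6 to day 7. HSPA1B, the more abundant copy in these counts, fell from 60.7 ± 5.80 to 4.48 ± 0.602 CPM on day 6 and had 5.62 ± 1.70 on day 7 in sgControl, and 50.2 ± 7.42, 4.01 ± 1.73 and 6.20 ± 1.41 in sgRELA. Added together, which no split between the copies can change, the pair had 70.1 ± 8.45, 5.36 ± 0.458 and 6.79 ± 1.37 CPM in sgControl and 59.4 ± 9.93, 4.56 ± 2.04 and 7.13 ± 1.56 CPM in sgRELA. HSPA1L, a related gene expressed mainly in testis, stayed under 1 CPM throughout and was not called in any day comparison.

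**Figure D3:**
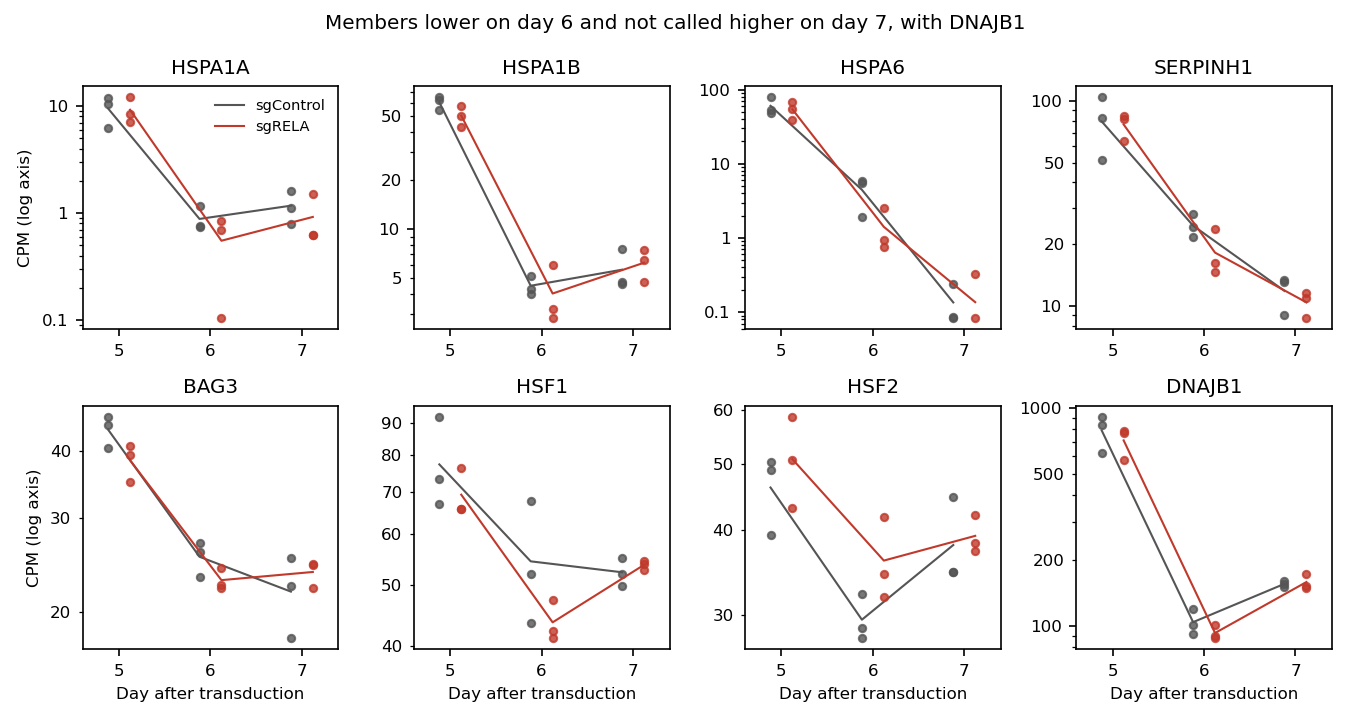
CPM on log axes (y) against day after transduction (x) for the 7 members called lower on day 6 and not called higher on day 7, and for DNAJB1; points are RNA samples (n = 3 per guide and day; the sgRELA day 7 sample of HSPA6 at 0 cannot be drawn), lines join group means. HSPA6 and SERPINH1 go on falling to day 7, HSPA1A and HSPA1B stay near their day 6 level, and DNAJB1 rises to 156 CPM in sgControl, far below its day 5 level of 788.

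Promoter sequences of a few members are shown because the members not called higher again on day 7 and those that recovered both include genes with heat shock element letters close to the start site. Each line gives 150 bases that end just before the RefSeq start site (GRCh38.p14), 5′ to 3′ on the strand of the gene: HSPA6 at chr1:161524390-161524539 (+), SERPINH1 at chr11:75562103-75562252 (+), HSPA1B at chr6:31827588-31827737 (+), CHORDC1 at chr11:90223050-90223199 (-) and HSPA8 at chr11:123062137-123062286 (-). Capitals mark matches to GAANNTTC or TTCNNGAA, joined where they overlap.
HSPA6: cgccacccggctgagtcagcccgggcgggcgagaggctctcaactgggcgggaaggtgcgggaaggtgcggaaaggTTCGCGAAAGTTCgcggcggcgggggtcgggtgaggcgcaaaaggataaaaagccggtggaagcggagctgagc
SERPINH1: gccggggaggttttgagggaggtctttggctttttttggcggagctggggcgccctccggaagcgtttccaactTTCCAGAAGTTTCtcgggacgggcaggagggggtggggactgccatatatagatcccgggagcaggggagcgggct
HSPA1B: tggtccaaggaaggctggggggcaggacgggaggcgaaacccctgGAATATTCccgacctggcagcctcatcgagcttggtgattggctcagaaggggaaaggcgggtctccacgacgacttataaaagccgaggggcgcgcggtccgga
CHORDC1: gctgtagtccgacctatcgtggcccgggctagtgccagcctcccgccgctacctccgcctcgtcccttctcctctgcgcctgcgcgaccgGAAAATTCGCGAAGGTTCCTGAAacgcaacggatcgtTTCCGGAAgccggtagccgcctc
HSPA8: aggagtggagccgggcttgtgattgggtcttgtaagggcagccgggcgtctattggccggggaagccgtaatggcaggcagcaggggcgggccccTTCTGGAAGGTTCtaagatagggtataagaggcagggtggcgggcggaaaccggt
HSPA6, SERPINH1 and HSPA1B were called lower on day 7 than on day 5 and not higher than on day 6, whereas CHORDC1 and HSPA8 rose again. A longer motif, the shorter one extended by 2 bases of any kind and a further GAA or TTC in alternation, was searched on both strands. It begins 74 bases before the start of HSPA6 and 76 before that of SERPINH1. HSPA8 has 2 copies, which begin 230 and 55 bases before its start, the first of them outside the bases shown. In CHORDC1, 3 overlapping copies begin 60 to 50 bases before the start. HSPA1B has only the shorter motif, 105 bases before its start. RefSeq promoter entries, which run from 250 bases before to 50 after a start, were matched for 42 members. Among these the longer motif was in 6 (14.3%) and the shorter one in 14 (33.3%), against 0.490% and 13.5% of all 35116 promoters; every longer motif contains the shorter one. Of the members called lower on day 6 and not higher on day 7 in both guides, 2 of 6 held the longer motif, as did 2 of 18 that recovered in both and 2 of 16 that were not called lower on day 6 in either. The shorter motif was in 4 of 6, 4 of 18 and 6 of 16 of the same classes. Each member was read at 1 start site, and other starts of the same gene were not searched. HSP90AA1 and DNAJB1, for example, held neither motif at the start used. The counts are a description of letters and not of binding.

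HSPA8, HSPA9 and HSPA14 were called higher on day 7 than on day 5 in both guides. HSPA8 (HSC70, the main HSP70 of unstressed cytosol; ENSG00000109971, chromosome 11, 123057489 to 123063230) had 1179.7, 1313 and 1376 CPM on day 5, 924, 999.8 and 964 on day 6 and 2380.5, 2436 and 2379.9 on day 7 in sgControl. With sgRELA the values were 1184, 1279.7 and 1327, then 1093, 1029.8 and 986, then 2394, 2369 and 2351. The days did not overlap in either guide, and day 7 was the highest. Its changes were -0.42 ± 0.06 (adjusted p = 1.25e-05) and -0.29 ± 0.06 (adjusted p = 0.00179) to day 6, and 1.32 ± 0.06 (adjusted p = 1.08e-15) and 1.19 ± 0.06 (adjusted p = 1.01e-14) from day 6 to day 7. HSPA9 (mortalin, the mitochondrial HSP70) was not called on day 6 (-0.10 and -0.12) and rose to day 7 by 0.58 and 0.40 on the log2 scale (adjusted p = 3.95e-05 and 0.00336). The sgRELA excess of HSPA9 on day 7 over day 5 was lost in 15 of 18 fits that left out 1 RNA sample (adjusted p 0.0532 to 0.165 in those). HSPA14, a ribosome-associated HSP70, rose from 8.33 to 19.9 CPM in sgControl and from 7.94 to 21.4 in sgRELA between days 6 and 7. HSPA2, another HSP70 with mean levels of 0.751 to 1.91 CPM, was not called in any day comparison.

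The HSP110 class, nucleotide exchange factors for HSP70, fell on day 6 in 2 of 3 members in sgControl and in 3 in sgRELA, and all 3 rose to day 7 in both. HSPH1 (HSP105; ENSG00000120694, chromosome 13, 31134974 to 31162388) had 245, 263 and 279 CPM on day 5, 65.7, 73.1 and 69.0 on day 6 and 197, 187 and 179 on day 7 in sgControl. In the sgRELA samples it stood at 254, 281 and 292, then 76.0, 91.8 and 76.7, then 178, 199.5 and 183. All 3 days were separate in both guides, with day 7 between the others. HSPH1 changed by -1.92 ± 0.09 (adjusted p = 5.33e-15) and -1.76 ± 0.09 (adjusted p = 5.14e-14) to day 6, and day 7 differed from day 5 by -0.48 ± 0.09 (adjusted p = 0.000316) and -0.56 ± 0.09 (adjusted p = 4.63e-05). HSPA4 fell less, by 0.37 and 0.30 on the log2 scale (adjusted p = 0.00816 and 0.0422), and rose to day 7 by 0.63 and 0.64. HSPA4L changed by -0.40 ± 0.13 (adjusted p = 0.0566) and -0.42 ± 0.13 (adjusted p = 0.0478) to day 6, on either side of the threshold. The sgRELA fall of HSPA4 was lost in 9 of the 18 fits that left out 1 RNA sample (adjusted p 0.0532 to 0.247 in those) and that of HSPA4L in 11 (0.0502 to 0.205).

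All 3 HSP90 genes fell on day 6 and rose to day 7 in both guides. Their summed level went from 4257 to 1409.5 and 4234 CPM in sgControl, the largest difference in summed CPM of any role class on day 6, although SERPINH1, alone in its class, fell more in proportion (79.3 to 24.6 CPM). Per kilobase of exon, HSP90AB1 (HSP90-beta, the constitutive cytosolic form) was the most abundant member in every group, at 735 CPM per kb on day 5 in sgControl, followed by HSP90AA1 at 382 and HSPA8 at 266. HSP90AA1 (HSP90-alpha, the inducible form; ENSG00000080824, chromosome 14, 102080738 to 102139699) had 1827, 1946 and 2242 CPM on day 5, 334, 399 and 446 on day 6 and 1454, 1444 and 1417 on day 7 in sgControl. The corresponding sgRELA values were 1798, 2013 and 2208, then 369, 443 and 425, then 1493, 1428 and 1403. The 3 days were separate in both guides, and on day 6 the gene lay behind HSP90AB1, HSPA8 and CCT3 per kilobase. It fell by 2.35 ± 0.09 and 2.28 ± 0.09 on the log2 scale (adjusted p = 1.71e-17 and 3.66e-17), rose by 1.87 and 1.81, and ended below day 5, with changes of -0.48 ± 0.09 (adjusted p = 0.000183) and -0.48 ± 0.09 (adjusted p = 0.000192). Without library 1 of sgControl day 6 replicate 1 and 1 library of sgControl day 5 replicate 2, the sgControl fall was -2.26 and the rise 1.75. HSP90AB1 went from 2191 ± 169.6 to 978 ± 163 and 2727 ± 47.3 CPM in sgControl and from 2204 ± 138 to 981 ± 22.6 and 2757 ± 37.3 in sgRELA, so that day 7 was above day 5 by 0.32 ± 0.08 (adjusted p = 0.00433) and 0.32 ± 0.08 (adjusted p = 0.00374). The alpha and beta forms thus ended on opposite sides of their day 5 levels. TRAP1, the mitochondrial HSP90, fell by 0.65 and 0.51 and rose by 0.82 and 0.72 on the log2 scale.

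**Figure D4:**
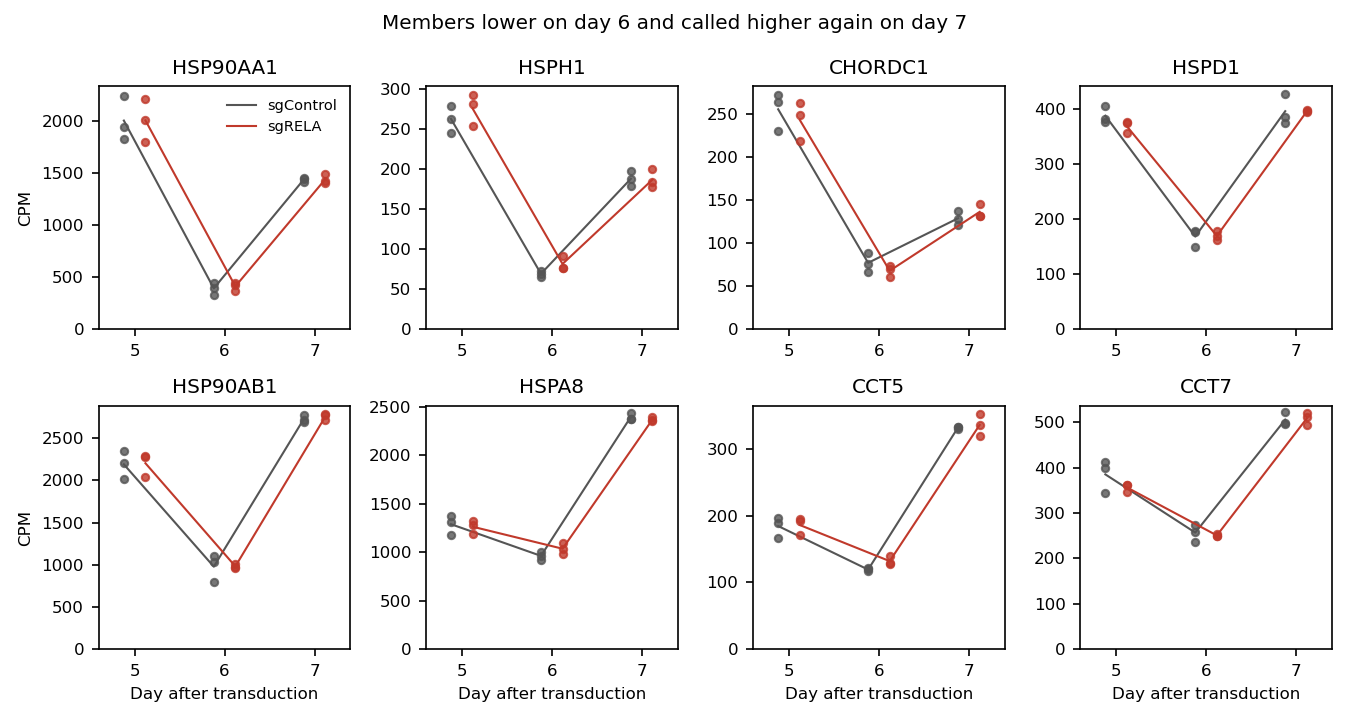
CPM (y axes from 0) against day after transduction (x axes) for 8 members called lower on day 6 and higher again on day 7; points are RNA samples (n = 3 per guide and day), lines join group means, grey is sgControl and red sgRELA. HSP90AA1, HSPH1 and CHORDC1 on day 7 lie below their day 5 samples, HSPD1 overlaps them in sgControl and lies above them in sgRELA, and HSP90AB1, HSPA8, CCT5 and CCT7 lie above them.

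Of the 7 co-chaperones of HSP90 and HSP70, 4 fell on day 6 in each guide, and 6 rose to day 7 in sgControl and 5 in sgRELA. CHORDC1 (an HSP90 co-chaperone with CHORD domains; ENSG00000110172, chromosome 11, 90201160 to 90223364), whose promoter is shown above, had 230.2, 264 and 272 CPM on day 5, 66.4, 76.0 and 88.7 on day 6 and 128, 138 and 120.4 on day 7 in sgControl. sgRELA gave 218, 248 and 262, then 73.2, 70.2 and 60.2, then 145, 131 and 132. The days were separate in both guides, and the recovery was partial, to 50.5% and 56.1% of day 5. CHORDC1 changed by -1.73 ± 0.11 (adjusted p = 2.94e-12) and -1.84 ± 0.11 (adjusted p = 6.25e-13) to day 6, and by 0.74 ± 0.11 (adjusted p = 4.32e-06) and 1.00 ± 0.11 (adjusted p = 2.64e-08) from day 6 to day 7. STIP1 (HOP, which links HSP70 to HSP90; ENSG00000168439, chromosome 11, 64185272 to 64204543) had 168, 160.2 and 183 CPM on day 5, 155, 171 and 158 on day 6 and 330.4, 308 and 301 on day 7 in sgControl, and 181, 184 and 181, then 182, 194 and 177, then 308, 318 and 323 in sgRELA. Days 5 and 6 overlapped and day 7 was above both. STIP1 was not called on day 6 (-0.08 ± 0.08, adjusted p = 0.647, and 0.02 ± 0.08, adjusted p = 0.953) and rose to day 7 by 0.96 ± 0.08 (adjusted p = 1.49e-10) and 0.78 ± 0.08 (adjusted p = 9.54e-09). AHSA1, which stimulates the HSP90 ATPase, FKBP4, a peptidyl-prolyl isomerase of steroid receptor complexes, and PTGES3, the p23 co-chaperone, fell by 0.47 to 0.92 in sgControl and by 0.49 to 0.60 in sgRELA on the log2 scale, and rose by 1.06 to 1.48 and 0.92 to 1.22. CDC37, which brings kinases to HSP90, was not called on day 6 and rose to day 7 by 0.34 ± 0.09 (adjusted p = 0.0061) in sgControl, with 0.26 ± 0.09 (adjusted p = 0.0526) in sgRELA. ST13 (HIP, an HSP70-interacting protein) had no call, with group means of 215 to 245 CPM.

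The mitochondrial chaperonin pair fell on day 6 and returned on day 7. HSPD1 (HSP60; ENSG00000144381, chromosome 2, 197486581 to 197516737) had 381, 376 and 405 CPM on day 5, 149, 179 and 176 on day 6 and 427, 384 and 375 on day 7 in sgControl. For sgRELA the CPM were 355, 374 and 375, then 169, 161 and 178, then 397, 393 and 396. Day 6 was separate and low in both guides, while days 5 and 7 overlapped in sgControl but not in sgRELA, where day 7 was higher. HSPD1 changed by -1.20 ± 0.08 (adjusted p = 8.69e-12) and -1.12 ± 0.08 (adjusted p = 2.59e-11) to day 6, and day 7 differed from day 5 by 0.03 ± 0.08 (adjusted p = 0.87) and 0.10 ± 0.08 (adjusted p = 0.478). HSPE1 (HSP10) went from 21.1 ± 1.57 to 6.51 ± 0.638 and 25.0 ± 1.87 CPM in sgControl and from 19.7 ± 2.69 to 6.88 ± 1.59 and 28.5 ± 1.26 in sgRELA. Its level is uncertain: the gene shares exons with the readthrough HSPE1-MOB4 and, on the other strand, with HSPD1, and 26 pseudogene rows held counts equal to 12.8% of its own. The sgRELA excess of day 7 over day 5 (0.53 ± 0.18, adjusted p = 0.0493) was lost in 15 of 18 fits that left out 1 RNA sample (adjusted p 0.0508 to 0.185 in those).

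Of the small heat shock proteins, which hold unfolding proteins without ATP, CRYAB and HSPB1 were scarce. CRYAB (alpha-B crystallin; ENSG00000109846, chromosome 11, 111908565 to 111923722) had 0.877, 0.686 and 1.81 CPM on day 5, 0.0981, 0.491 and 0.177 on day 6 and 0 in all 3 samples on day 7 in sgControl, and 1.46, 0.720 and 0.756, then 0.439, 0.358 and 0, then 0, 0.244 and 0.126 in sgRELA. Days 5 and 6 did not overlap in either guide, and days 6 and 7 overlapped in sgRELA. Day 7 of sgControl, with 0 counts against 77 on day 5, was at least 28.0-fold lower by a floor of 3 counts over the group (adjusted p = 0.00349). Library 2 of day 5 replicate 3 held 42 of the 77 counts, and without it, an alternative chosen after seeing the data, the bound was 15.2-fold; in sgRELA the fitted day 7 change was -2.94 ± 1.27 (adjusted p = 0.143). The fall from day 6 to day 7 in sgControl (adjusted p = 0.0313) was lost in 4 of 18 fits that left out 1 RNA sample, without sgControl day 6 replicate 2 or without any one of the day 7 replicates (adjusted p 0.0822 to 0.1). HSPB1 (HSP27), at mean levels of 0.778 to 2.25 CPM, was not called. HSPB11, now named IFT25 and known as an intraflagellar transport subunit, had mean levels of 19.8 to 29.2 CPM and rose to day 7 from day 6 in sgRELA (0.52 ± 0.17, adjusted p = 0.0372), with 0.45 ± 0.17 (adjusted p = 0.0733) in sgControl.

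Among the 8 DNAJ genes, 1 fell on day 6 in each guide. That gene was DNAJB1 (HSP40, the partner of inducible HSP70; ENSG00000132002, chromosome 19, 14514770 to 14529770), with 619, 909.6 and 835 CPM on day 5, 100.5, 91.3 and 120.0 on day 6 and 159.8, 151 and 156 on day 7 in sgControl. In sgRELA it had 577, 770.0 and 782, then 89.6, 100.5 and 87.9, then 153, 149.7 and 174. The 3 days were separate, and day 7 stood at 19.8% and 22.4% of day 5. DNAJB1 changed by -2.92 ± 0.12 (adjusted p = 2.03e-16) and -2.94 ± 0.13 (adjusted p = 1.84e-16) to day 6 and by 0.58 ± 0.12 (adjusted p = 0.000535) and 0.78 ± 0.12 (adjusted p = 1.45e-05) to day 7, so by the rule of calls it counts as recovered although most of its fall remained. DNAJA1 (HDJ2, a farnesylated HSP40; ENSG00000086061, chromosome 9, 33025211 to 33039907) behaved differently, with 119, 99.3 and 114 CPM on day 5, 96.9, 104 and 109.7 on day 6 and 244, 232 and 232 on day 7 in sgControl, and 109.6, 119 and 113, then 113, 120.1 and 101, then 246, 234 and 242 in sgRELA. Days 5 and 6 overlapped and day 7 lay above both, by 1.09 ± 0.09 (adjusted p = 4.42e-10) and 1.08 ± 0.09 (adjusted p = 4.56e-10) over day 5. DNAJB6, a suppressor of protein aggregation, rose to day 7 from day 6 by 0.71 and 0.57 on the log2 scale. DNAJB2, the neuronal J protein HSJ1, and DNAJB4 were lower on day 7 than on day 5, with changes of -0.61 ± 0.14 (adjusted p = 0.00237) and -0.57 ± 0.14 (adjusted p = 0.00434) for DNAJB2. For DNAJB4 the values were -0.92 ± 0.25 (adjusted p = 0.0111) and -0.85 ± 0.25 (adjusted p = 0.0207), lost in 2 and 3 of 18 fits that left out 1 RNA sample. DNAJA2 rose to day 7 in sgControl alone by call (0.35 ± 0.11, adjusted p = 0.0297, against 0.13 ± 0.11, adjusted p = 0.576 in sgRELA) and DNAJA3, the mitochondrial TID1, in sgRELA alone (0.48 ± 0.13, adjusted p = 0.0078, against 0.26 ± 0.12, adjusted p = 0.184); neither difference between guides passed the interaction test. DNAJA4, at mean levels of 0.653 to 1.58 CPM, was not called.

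Within the BAG class 1 gene fell on day 6. BAG3 (an HSP70 exchange factor of selective autophagy and a known heat shock gene; ENSG00000151929, chromosome 10, 119651370 to 119677819) had 40.6, 44.7 and 46.3 CPM on day 5, 26.9, 23.3 and 26.0 on day 6 and 22.4, 25.3 and 17.9 on day 7 in sgControl. In sgRELA it had 35.1, 39.4 and 40.9, then 22.2, 24.2 and 22.5, then 24.6, 22.2 and 24.6. Every day 5 sample was above all later ones, and days 6 and 7 overlapped. BAG3 changed by -0.79 ± 0.15 (adjusted p = 0.000506) and -0.74 ± 0.15 (adjusted p = 0.00114) to day 6 and by -0.22 ± 0.15 (adjusted p = 0.405) and 0.05 ± 0.15 (adjusted p = 0.912) to day 7. BAG1 and BAG2, an exchange factor and an inhibitor of the ubiquitin ligase CHIP, were not called on day 6 and rose to day 7 by 0.89 and 0.49 in sgControl and 0.50 and 0.68 in sgRELA.

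The TRiC/CCT chaperonin, which folds actin and tubulin, moved in 1 direction at each step. All 8 subunits fell on day 6 in sgControl and 7 in sgRELA, all 8 rose to day 7 in both, and 7 were above day 5 on day 7 in each guide. CCT5 (ENSG00000150753, chromosome 5, 10249921 to 10266412) had 167, 189 and 196 CPM on day 5, 116, 121 and 119.8 on day 6 and 333, 333 and 330.0 on day 7 in sgControl. In sgRELA it had 170.2, 192 and 195, then 140.0, 127 and 128, then 319, 336 and 352. The days were separate, with day 7 highest. CCT5 changed by -0.63 ± 0.08 (adjusted p = 4.66e-06) and -0.50 ± 0.08 (adjusted p = 0.000146) to day 6 and by 1.48 ± 0.08 (adjusted p = 1.01e-13) and 1.35 ± 0.08 (adjusted p = 5.54e-13) to day 7. CCT7 (ENSG00000135624, chromosome 2, 73233420 to 73253021) had 344, 412 and 399 CPM on day 5, 237, 274 and 259 on day 6 and 522, 496 and 499 on day 7 in sgControl, and 345, 362 and 361, then 253, 249.9 and 249, then 520.2, 511 and 494 in sgRELA. Its day 7 samples lay above all day 5 samples, by 0.39 ± 0.07 (adjusted p = 0.000342) and 0.51 ± 0.07 (adjusted p = 9.33e-06). The exception on day 6 was CCT2 in sgRELA, with -0.19 ± 0.08 (adjusted p = 0.214) against -0.41 ± 0.08 (adjusted p = 0.0016) in sgControl. The exception on day 7 was CCT8, which was not called against day 5 (-0.03 ± 0.11, adjusted p = 0.921 and -0.10 ± 0.11, adjusted p = 0.646). The smallest day 6 falls, of CCT3 (-0.28 and -0.28) and CCT6A (-0.37 and -0.33), were each lost when some single RNA samples were left out: CCT3 without sgControl day 5 replicate 3 or sgRELA day 6 replicate 3, CCT6A without any of 2 sgControl or 4 sgRELA samples. The small day 7 excess of CCT4 over day 5 in sgControl (0.25 ± 0.08, adjusted p = 0.0468) was lost in 14 of 18 such fits (adjusted p 0.0502 to 0.158 in those).

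The heat shock factors fell modestly. HSF1 (ENSG00000185122, chromosome 8, 144291591 to 144314722) had 66.9, 92.0 and 73.3 CPM on day 5, 67.8, 51.9 and 43.5 on day 6 and 49.8, 55.0 and 52.1 on day 7 in sgControl. In sgRELA it had 76.4, 65.7 and 65.8, then 41.2, 42.3 and 47.3, then 54.5, 52.8 and 53.8. In sgControl days 5 and 6 overlapped, since replicate 1 of day 6, which includes the library that stood apart, was high; in sgRELA day 6 lay below both other days. HSF1 changed by -0.51 ± 0.14 (adjusted p = 0.0157) and -0.67 ± 0.14 (adjusted p = 0.00181) to day 6 and by -0.06 ± 0.14 (adjusted p = 0.868) and 0.30 ± 0.14 (adjusted p = 0.181) to day 7. The sgControl fall was lost without day 5 replicate 2 or day 6 replicate 3 (adjusted p = 0.126 and 0.112), and was -0.70 without the 2 libraries with few detected genes. HSF2, a second heat shock factor, fell by 0.64 and 0.49 (adjusted p = 0.00472 and 0.0384) and was not called on day 7 against day 6 or day 5; its sgRELA fall was lost in 4 of 18 fits that left out 1 RNA sample (adjusted p 0.0974 to 0.204).

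SERPINH1 (HSP47, a collagen chaperone of the endoplasmic reticulum and a heat shock gene; ENSG00000149257, chromosome 11, 75562056 to 75572783) had 51.7, 104 and 82.0 CPM on day 5, 27.9, 21.5 and 24.3 on day 6 and 9.03, 13.01 and 13.4 on day 7 in sgControl. In sgRELA it had 63.6, 81.6 and 84.8, then 23.7, 14.5 and 16.2, then 11.5, 8.69 and 10.9. It was lower on each later day without overlap, in both guides. Its changes were -1.69 ± 0.21 (adjusted p = 2.26e-06) and -2.08 ± 0.21 (adjusted p = 7.47e-08) to day 6 and -1.06 ± 0.21 (adjusted p = 0.000511) and -0.81 ± 0.21 (adjusted p = 0.0097) to day 7. The second fall in sgRELA was lost without day 6 replicate 1 or day 7 replicate 2 (adjusted p = 0.126 and 0.0662).

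Sorted by their calls, the 28 members that fell on day 6 divided into 21 that rose again to day 7 and 7 that did not, in each guide. Over all genes tested, 3.16% and 2.23% fell and rose, and 2.42% and 2.11% fell without rising, in sgControl and sgRELA. The 7 not called higher again were the same in both guides: HSPA1A, HSPA1B, HSPA6, BAG3, SERPINH1, HSF1 and HSF2. The first 5 were called lower on day 7 than on day 5 in both guides, HSF1 in sgControl alone and HSF2 in neither. The guide difference in this change was not called for any of them. The HSF2 samples of day 7 lay above those of day 6 and overlapped those of day 5 in sgControl, and overlapped day 6 in sgRELA. On day 7 the 7 members stood at a median of 14.9% (sgControl) and 13.5% (sgRELA) of day 5. HSF2 and HSF1 were the mildest of them, at 82.4% and 67.6% in sgControl and 77.2% and 77.5% in sgRELA. The recovered members ended at different heights. DNAJB1, CHORDC1, HSP90AA1 and HSPH1 were still called lower than on day 5 in both guides, at 19.8% to 71.7% of it in sgControl and 22.4% to 71.8% in sgRELA. CCT8, HSPD1 and TRAP1 were not called against day 5 in either guide. AHSA1, FKBP4, PTGES3, HSP90AB1, HSPA8, TCP1, CCT3, CCT4, CCT5, CCT6A and CCT7 were called higher than on day 5 in both; with the members called so in 1 guide, they spanned 119% to 186% (sgControl) and 125% to 188% (sgRELA) of day 5. A further 11 members in each guide were not called on day 6 and were called higher on day 7 than on day 6 or on day 5. Of these, 9 were so in both: BAG1, BAG2, CDC37, DNAJA1, DNAJB6, HSPA9, HSPA14, HSPB11 and STIP1. HSPB11 in sgControl and CDC37 in sgRELA were called against day 5 only. Whatever their day 6 call, 8.25% and 7.21% of all genes were higher on day 7 than on day 6 in sgControl and sgRELA. Against day 5 these shares were 6.65% and 6.35%. No call of any kind was made in either guide for DNAJA4, HSPA1L, HSPA2, HSPB1 and ST13. All but ST13 of these averaged under 3 CPM in each group, so a change there may not be detectable at this depth. Leaving out 1 RNA sample ended further calls in at least 1 of 18 fits: for day 6 against 5, HSPA4 in sgControl and TRAP1 in sgRELA; for day 7 against 6, BAG1 in sgRELA, BAG2 in sgControl, DNAJA2 in sgControl, DNAJA3 in sgRELA, DNAJB2 in sgControl and HSPB11 in sgRELA; for day 7 against 5, CCT4 in sgRELA, CDC37 in sgRELA, DNAJB6 in sgRELA, HSF1 in sgControl, HSPA14 in sgRELA, HSPA4 in sgRELA, HSPB11 in sgControl and PTGES3 in sgRELA.

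The day courses of the 2 guides rest on separate samples, but they share the days and any batch tied to a day. Of the members that fell on day 6, 27 did so in both guides, which is 96.4% of each list of 28. For the rise to day 7 the overlap was 29 of 31 in each guide. No member was called in opposite directions. The same overlap over all genes is not given here, so these counts do not show whether the agreement is particular to the members. The Pearson correlation of log2 changes over the 48 members was 0.92, 0.88 and 0.92 for day 6 against 5, day 7 against 6 and day 7 against 5; it is given as a description across genes, which are not independent, and within a guide the comparisons share samples.

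**Figure D5:**
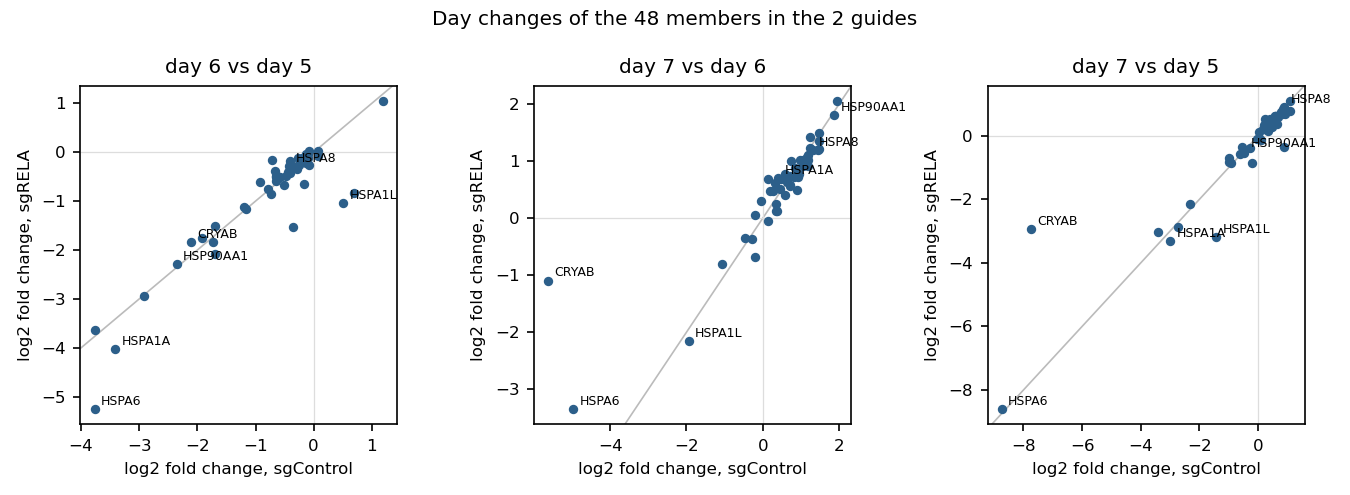
Log2 fold change of each of the 48 members in sgControl (x) and sgRELA (y) for the 3 day comparisons; each point is a gene and the grey diagonal marks equal change. HSPA6 lies farthest from the origin on day 6 against day 5, and CRYAB is off the diagonal where its sgControl day 7 samples were at 0.

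No member was called between the guides, and differences of modest size may have gone uncalled. Comparing sgRELA with sgControl on days 5, 6 and 7, edgeR called 0 of 48 members each day, where 0.138%, 0.214% and 0.0907% of all genes were called. DESeq2 called 0 members as well. At an unadjusted p under 0.05, 1, 8 and 1 of the 48 members passed, against 1641, 1672 and 1290 of all 27553 genes. The share on day 6 was thus higher among the members, with 5 of them higher and 3 lower in sgRELA. The largest of these on day 6 was HSPA6, lower in sgRELA by 1.64 on the log2 scale with a standard error of 0.41 (mean 1.41 ± 0.991 against 4.46 ± 2.21 CPM; log2 fold change -1.64, adjusted p = 0.108). HSPA6 was called without sgControl day 6 replicate 2 (adjusted p = 0.00761), without sgRELA day 6 replicate 2 (adjusted p = 0.012) and without the filter on low counts (adjusted p = 6.33e-09). Among the 42 members with a mean of at least 10 CPM, the guide difference ran from -0.27 to 0.42 on day 5, from -1.64 to 0.41 on day 6 and from -0.19 to 0.19 on day 7. The test of whether a day change differed between guides called 0 members in each of the 3 comparisons (0%, 0.00363% and 0% of all genes). DESeq2 also called 0. At an unadjusted p under 0.05, 2, 2 and 1 members passed, against 1331, 1343 and 1307 of all 27553 genes. HSPA6 passed the test for day 6 against day 5 where low counts were not filtered (adjusted p = 0.00407).

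Genes of related function outside the 48 were counted in the same way. Of 67 other chaperones, co-chaperones and J proteins listed, 61 were tested. Brackets give the share of these that was called against the share of all genes. On day 6, 7 fell (11.5% against 5.58%) and 2 rose (3.28% against 3.29%) in sgControl. In sgRELA 3 fell (4.92% against 4.34%) and 2 rose (3.28% against 2.57%). From day 6 to day 7, 14 rose (23% against 8.25%) and 4 fell (6.56% against 6.31%) in sgControl, while 13 rose (21.3% against 7.21%) and 2 fell (3.28% against 5.02%) in sgRELA. Against day 5, 7 were higher (11.5% against 6.65%) and 7 lower (11.5% against 6.36%) on day 7 in sgControl, and 10 higher (16.4% against 6.35%) and 1 lower (1.64% against 6.06%) in sgRELA. The median day 6 change of this list was -0.13 and -0.04, that of all genes 0.04 and 0.03 and that of the 48 members -0.45 and -0.49. GRPEL2, a nucleotide exchange factor of mitochondrial HSP70, fell by 0.92 ± 0.12 and 0.72 ± 0.12 and rose by 0.54 ± 0.12 and 0.56 ± 0.12. FKBP5, an HSP90 co-chaperone of the glucocorticoid receptor, was above day 5 on day 7 by 1.01 ± 0.12 and 0.77 ± 0.12. DNAJC3, a co-chaperone of the endoplasmic reticulum, went the other way, rising by 0.46 ± 0.14 and 0.67 ± 0.14 on day 6 and falling by 0.93 ± 0.14 and 1.04 ± 0.14 on day 7. Among 14 other heat shock responsive genes, 12 were tested. On day 6, 2 of them fell (16.7% against 5.58%) and 1 rose (8.33% against 3.29%) in sgControl. In sgRELA 4 fell (33.3% against 4.34%) and 1 rose (8.33% against 2.57%). CACYBP, a HSP90-associated protein, fell by 1.08 ± 0.10 and 1.05 ± 0.10 and rose by 0.88 ± 0.10 and 0.93 ± 0.10, like the recovering members. ZFAND2A, an arsenite- and heat-inducible gene, ATF3, a stress transcription factor, and PPP1R15A, a phosphatase subunit of the stress response, were lower on day 7 than on day 5 in both guides, by 0.99 ± 0.22, 2.12 ± 0.32 and 1.55 ± 0.17 in sgControl. In sgRELA they were lower by 0.90 ± 0.21, 2.10 ± 0.32 and 1.70 ± 0.17. No gene of either list was called between guides on any day.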

How the data were processed

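RamDA-seq counts of 36 libraries from 18 RNA samples of Jurkat-dCas9-VP64 cells were analysed. The authors deposited raw read counts per Ensembl gene, without normalization, in 1 table; per the submitters' processing notes, cutadapt 1.18, STAR 2.7.9a and GRCh38 were used. The counting tool, annotation, strand setting and treatment of reads with several matches are not given in the sources used here, so near-identical copies, overlapping genes and antisense partners are uncertain. No molecular identifiers are mentioned, so precision rests on reads. RamDA-seq primes total RNA with not-so-random and oligo-dT primers, so transcripts without poly(A) tails are counted too.

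Members were matched by symbol, 47 through a table of gene names and HSPB11 through GENCODE v29 (GRCh38), whose coordinates are printed. The members and lists were chosen with earlier results of these data known. Both libraries of each RNA sample were summed. All 18 sums were fitted with 1 mean per guide and day in edgeR 4.0.16 (R 4.3.3), with TMM factors, filterByExpr with a minimum count of 10, the quasi-likelihood test and Benjamini-Hochberg adjustment over 27553 genes; a call is an adjusted p under 0.05. Standard errors come from the F statistic, CPM values use TMM factors, and mean ± SD is over 3 RNA samples. A member is recovered where it was called lower on day 6 and higher on day 7 against day 6. Values in every sample are printed for HSPA1A, DNAJB1, HSPA8, HSP90AA1, HSPD1, HSF1 and the member with the smallest p of the F test for any day difference in each role class (2 in classes of 7 or more). The method was tested on simulated counts in which 200 genes changed on day 6 of sgControl. It found 6.06%, 26.9% and 50.7% of changes of 0.5, 1 and 2 on the log2 scale. Among genes with a mean count of at least 50 it found 10.5%, 42.9% and 89.2%. Of its calls, 1.75% were false. A gene not called may therefore still have changed. The simulation changed 200 genes, whereas in the data 907 were called higher and 1538 lower from day 5 to day 6 in sgControl. The shares found in it may therefore differ from those in the data. Alternatives were DESeq2 1.42.0, its size factors, no filter, each library alone, a replicate block, each guide alone, and leaving out each RNA sample or 2 libraries. Promoters came from RefSeq. No pairing of samples by replicate number was seen, and none was used in the main fit.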

Additional observations from a re-analysis of the deposited data

Results flagged for a closer look

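Among 102 searches, for 16 members and the summed member level over the 6 libraries of each group, 11 found a library apart from the others of its group, in 8 distinct libraries, beyond the 95% critical value of Dixon's test; chance alone gives about 1 in 20. Values are CPM of single libraries. Library 1 of sgControl day 6 replicate 1 accounts for 4 of them: the summed level of the members was 4328 there and 6059 to 6415 in the other libraries of that group, HSP90AA1 was 162.3 against 372.0 to 471.7, HSF1 117.5 against 35.9 to 53.7 and SERPINH1 39.6 against 19.5 to 25.7. This library had few detected genes, and its part in these values was not tested, but the calls of HSP90AA1, HSF1 and SERPINH1 on day 6 held without it.

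The others were single libraries, each of a different RNA sample. HSPA8 was 2494 in library 1 of sgControl day 7 replicate 2, above 2380 to 2411 elsewhere in the group. HSF1 was 53.7 in library 2 of sgRELA day 6 replicate 3, above 39.7 to 43.2. HSPA6 was 0.665 in library 1 of sgRELA day 7 replicate 2, where the others had 0 to 0.168. CRYAB was 3.71 in library 2 of sgControl day 5 replicate 3, with 0 to 0.888 in the others. DNAJA1 was 268.8 in library 2 of sgControl day 7 replicate 1, above 222.4 to 236.9. SERPINH1 was 52.8 in library 2 of sgRELA day 5 replicate 1, below 73.7 to 86.2. CCT5 was 320.8 in library 1 of sgControl day 7 replicate 3, below 334.1 to 341.1. In the main fit the interaction test called no member for a day change that differed between the guides. Where low counts were not filtered, that test called HSPA6 for day 6 against day 5 (adjusted p = 0.00407).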

How the results depend on the processing

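Of the 188 called day changes of members, 107 kept direction and call in every alternative run, 81 lost the call in at least 1 and 0 changed sign. DESeq2 lost 0 of them, its size factors 1, no filter 5, each guide fitted alone 5, dropping both libraries of low gene number 1, the second library alone 33 and the first library alone 76. With the first library of each RNA sample alone, 17 and 12 members were called lower on day 6 (sgControl and sgRELA), 13 and 8 fell and recovered, 4 and 4 fell and were not called higher again, 2 and 1 were lower on day 7 than on day 6, 6 and 6 lower and 10 and 8 higher than on day 5; calls over all genes then numbered 196 to 1879 per day comparison, and 1183 to 2628 with the second library alone, where 1 member was lower on day 7 than on day 6 in sgControl. DESeq2 gave 4 lower on day 7 than on day 6 in sgRELA. Without a filter, 1 member was called between guides on day 6 and 1 in the interaction of day 6 with day 5.

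Leaving out 1 RNA sample at a time gave 25 to 30 and 23 to 28 members lower on day 6, 29 to 31 and 29 to 32 higher on day 7 than on day 6, 2 to 4 and 1 to 3 lower, 18 to 22 and 17 to 21 recovered, 6 to 8 and 6 to 7 that fell and were not called higher again, 18 to 21 and 14 to 21 higher than day 5, and 0 to 1 called between guides on day 6. No pairing by replicate number was seen: deviations of same-numbered samples of a guide correlated between days at -0.11 to 0.04, and 4 of 18 samples correlated best with their own number. Such values do not exclude a pairing. With the replicate block, 4 of the 188 calls were lost and every count of members stayed within 1.5 times. Members under about 3 CPM are limited by depth.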
